A study of Mus musculus with 30 samples.

Results

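The genes described here are 8 leukocyte adhesion molecules: Vcam1, Icam1, Icam2, Sele, Selp, Madcam1, Alcam and Cd99l2. They were taken as a named list from 21820 protein-coding genes, and the transcript values of each symbol were summed in all 14 RNA-seq libraries. RNA came from brain endothelial cells (ECs) that were either acutely isolated or grown in primary culture, and a companion set of 10 ATAC-seq libraries recorded accessible chromatin in the same EC conditions. Acutely isolated brain ECs (2 libraries) and GFP-negative brain cells (2 libraries) were sorted from adult male mice homozygous for Tie2-GFP, a transgene that marks ECs with green fluorescent protein. Per the paper, its adult brain EC data combine ECs of the cerebrum with previously published ECs of the cerebellum. WT cultured brain ECs (6 libraries) were kept in culture for 8 days in all. Early in these days they were treated with puromycin, which spares cells rich in the efflux pump P-glycoprotein. WT replicates 1 and 2 were C57BL/6J cells isolated by method A (papain digestion), and replicates 3 to 6 were Ctnnb1flex3/+;Tie2-GFP cells isolated by method B (Dounce homogenization, then collagenase and dispase). Beta-catenin stabilized cultured brain ECs (4 libraries) carried Ctnnb1flex3/+;Pdgfb-CreER;Tie2-GFP and were likewise cultured for 8 days, replicates 1 and 2 by method A and replicates 3 and 4 by method B. In these mice Cre from the EC-enriched Pdgfb transgene removes exon 3 of Ctnnb1 after 4-hydroxytamoxifen (4HT), and per the study's methods the control mice received 4HT too.

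Within a culture experiment each replicate was a separate well seeded from pooled brains of several mice, so p-values among cultures measure the spread between wells and experiments rather than between animals. Isolation method and genotype cannot be told apart among the WT cultures, since all C57BL/6J cells came by method A. All cultures were sequenced as paired reads, of 150 cycles in WT replicates 3 and 4 and of 36 cycles in the others, whereas the sorted cells were sequenced as single reads of 75 cycles. Read format and culture therefore cannot be told apart either.

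Leukocytes leave the blood in steps, and endothelial adhesion molecules serve each of them. Selectins catch passing cells and let them roll, the immunoglobulin-superfamily proteins VCAM1, ICAM1 and ICAM2 hold integrins for firm arrest and crawling, and proteins at the cell contacts help the cells cross. Resting brain ECs are known for low levels of most of these molecules, and inflammatory cytokines acting through NF-kB raise E-selectin, VCAM1 and ICAM1.

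Summed estimated counts per library were 53421411 and 74422089 in the GFP-negative cells, 55701811 and 94686456 in acutely isolated ECs, 24284843 to 65623544 in WT cultures and 53213098 to 61342434 in stabilized cultures. Because nuclear protein-coding genes took 26.5 to 40.5% of deposited TPM in the sorted cells and 35.3 to 94.3% in the cultures, levels compared between libraries are given as rescaled TPM, in which the nuclear protein-coding genes of each library share the same total. Deposited TPM (read abundance per transcript length, scaled to the same total in each library) was kept for comparing genes within a library. The rescaled TPM of 8 endothelial markers summed to 25.3 and 78.2 in GFP-negative cells, 7336 and 9381 in acutely isolated ECs, 2938 to 9584 in WT cultures and 4992 to 9254 in stabilized cultures. Ctnnb1, the gene targeted in the stabilized cultures, lay at 780 to 1280 rescaled TPM there and at 380 to 1695 in WT cultures. A gene-level sum does not separate transcripts with and without exon 3, so the deletion itself was not examined here.

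The promoters of the selectins and of Madcam1 are shown because their genes had few transcripts in every library while their chromatin differed between libraries. The promoter of Icam1 is shown beside them because it carried an accessibility peak in both acute libraries. Those of Icam2, Alcam and Cd99l2 did so too and are not shown. Each sequence runs 5′ to 3′ on the gene's strand from 250 bases before to 50 bases after the start, from RefSeq on GRCm38.p6, whose table held 6 of the 8 genes. Capitals mark matches, on either strand, to the NF-kB consensus GGGRNNYYCC (R is A or G, Y is C or T), the AP-1 motif TGANTCA or the ETS motif GGAAGT. The Icam1 window held no exact match to any of them. Sites that depart from these letters were not searched, so this does not show that the window lacks an NF-kB site.
Sele, chr1:164047984-164048283, plus strand: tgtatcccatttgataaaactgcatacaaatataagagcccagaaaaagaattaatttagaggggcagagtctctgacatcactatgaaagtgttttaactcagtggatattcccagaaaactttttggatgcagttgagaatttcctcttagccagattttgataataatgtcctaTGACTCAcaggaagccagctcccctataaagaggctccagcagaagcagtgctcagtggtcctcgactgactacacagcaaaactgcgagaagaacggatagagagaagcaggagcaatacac
Selp, chr1:164115014-164115313, plus strand: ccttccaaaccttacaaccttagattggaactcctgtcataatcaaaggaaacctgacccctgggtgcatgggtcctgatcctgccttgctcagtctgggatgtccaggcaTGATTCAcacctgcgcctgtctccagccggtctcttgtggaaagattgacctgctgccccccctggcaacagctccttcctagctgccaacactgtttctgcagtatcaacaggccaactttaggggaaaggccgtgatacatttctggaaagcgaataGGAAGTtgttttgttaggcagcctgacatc
Madcam1, chr10:79664309-79664608, plus strand: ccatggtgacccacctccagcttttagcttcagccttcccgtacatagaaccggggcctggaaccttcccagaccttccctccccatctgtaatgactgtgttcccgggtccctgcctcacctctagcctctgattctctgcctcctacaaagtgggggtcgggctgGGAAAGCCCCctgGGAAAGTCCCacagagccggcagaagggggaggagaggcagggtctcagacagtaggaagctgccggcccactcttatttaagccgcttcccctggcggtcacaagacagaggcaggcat
Icam1, chr9:21015690-21015989, plus strand: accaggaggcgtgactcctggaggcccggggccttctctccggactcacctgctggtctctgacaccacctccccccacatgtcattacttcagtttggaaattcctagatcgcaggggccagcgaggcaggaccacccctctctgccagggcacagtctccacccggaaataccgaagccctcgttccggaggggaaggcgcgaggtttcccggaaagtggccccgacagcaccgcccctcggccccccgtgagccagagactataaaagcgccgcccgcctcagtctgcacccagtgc

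The Sele window held 1 AP-1 match at -73 from the start. The Selp window held an AP-1 match at -139 and an ETS match at 20 bases past the start. Madcam1 held a pair of NF-kB matches at -83 and -70. Of 32851 RefSeq promoter windows of the same length, 8.46% held an NF-kB match, 7.81% an AP-1 match and 23.8% an ETS match, so any 1 match is a description of the letters and not a binding site.

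Transcript levels ordered the 8 genes into an abundant and a scarce set. In WT cultures the order by deposited TPM was Vcam1 at 306 ± 217 (SD, n = 6), Icam2 at 195 ± 135, Icam1 at 76.2 ± 49.9, Cd99l2 at 15.9 ± 5.48, Alcam at 7.57 ± 5.19, Sele at 0.955, Selp at 0.697 and Madcam1 at 0.165. Neighbours in that order overlapped in their ranges over libraries, except Icam1 and Cd99l2. In acutely isolated ECs Icam2 led at 61.3 ± 4.75 TPM (SD, n = 2), followed by Vcam1 at 28.6 ± 2.92 and Icam1 at 20.4 ± 1.73. Among stabilized cultures Vcam1 again headed the order, at 405 ± 360 TPM (SD, n = 4), with Icam2 at 136 ± 78.1 and Icam1 at 66.8 ± 32.4. The GFP-negative cells had another order, with Alcam first at 37.7 ± 15.7 TPM (SD, n = 2), then Vcam1 at 12.0, Cd99l2 at 11.0, Icam1 at 1.38 and Icam2 at 0.258. All 8 genes together summed to 122 to 126 TPM in acutely isolated ECs, 147 to 963 TPM in WT cultures, 221 to 1085 TPM in stabilized cultures and 41.7 to 83.2 TPM in GFP-negative cells. These sums are deposited TPM, which also differs with library composition, so they do not rank the groups.

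**Figure D1:**
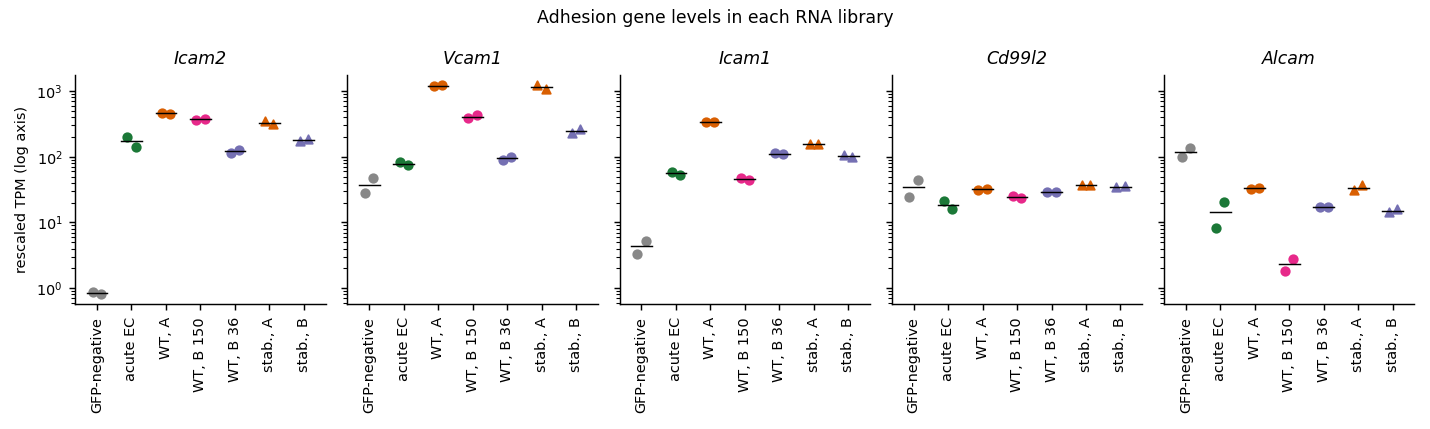
Rescaled TPM of Icam2, Vcam1, Icam1, Cd99l2 and Alcam on a log axis, 1 point per library, with the cultures split by isolation method and read length. Icam2 in the GFP-negative cells lay near 0.8, far below the 116 or more of every EC library, and Vcam1 in the cultures ran from 88.7 to 1241.

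The comparison of acutely isolated ECs with GFP-negative cells asked which adhesion genes belong to the endothelium of the adult brain. Icam2, a constitutive endothelial ligand of the leukocyte integrin LFA-1, had the largest difference among the genes called, Icam1 was also higher in ECs, and Alcam was lower. Sele had a larger fitted difference than Icam2 but rested on few reads. Of the 6 genes that passed the count filter, 2 were called higher and 1 lower, where 8.30% of 15102 genes were called higher and 7.56% lower. A call required an adjusted p under 0.05 in the quasi-likelihood test of edgeR (Benjamini-Hochberg adjustment), a change of over 2-fold and at least 5 TPM in every library of the higher group.

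Icam2 measured 201 and 143 rescaled TPM in the 2 acute EC libraries and 0.859 and 0.817 in the 2 GFP-negative libraries. The groups were 205-fold apart in rescaled TPM, and the fitted difference was 7.75 ± 0.68 on the log2 scale (SE; adjusted p = 0.00178, edgeR). Icam1, the cytokine-inducible ligand of LFA-1 and Mac-1, measured 59.6 and 53.5 in ECs against 3.33 and 5.29 in GFP-negative cells. Its ranges did not overlap, and the log2 fold change was 4.02 ± 0.45 (SE; adjusted p = 0.00281, edgeR).

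Vcam1, the endothelial ligand of the integrin VLA-4, was less restricted. It measured 82.2 and 75.6 rescaled TPM in ECs and 28.0 and 47.1 in GFP-negative cells, so the EC libraries were the higher ones by 2.1-fold. The log2 fold change of 1.43 ± 0.43 (SE) had an adjusted p of 0.0516 by edgeR. It passed in DESeq2 (1.39, adjusted p = 0.0385) and without acute EC replicate 2, which leaves 1 EC library (1.74, adjusted p = 0.0340). Over all alternatives it ranged from 0.91 to 1.87, with adjusted p up to 0.324.

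Alcam, a homophilic adhesion protein that also binds CD6 on T cells, went the other way. It measured 8.32 and 20.4 rescaled TPM in ECs and 101 and 138 in GFP-negative cells. Every GFP-negative library was the higher, and the log2 fold change was -3.26 ± 0.42 (SE; adjusted p = 0.00407, edgeR). Cd99l2, a CD99-related protein of endothelial contacts that takes part in transmigration, measured 21.3 and 16 against 24.5 and 43.9, and its fold change, as log2, was -0.41 ± 0.38 (SE; adjusted p = 0.469).

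The selectin genes rested on few counts. Sele, encoding E-selectin, had 120 and 187 estimated counts in the EC libraries and 1 and 0 in the GFP-negative libraries, a depth-scaled ratio of 246 with an exact 95% interval of 43.8 to 9735 that covers counting error only. It stayed below the 5 TPM minimum and so was not called, with 8.10 ± 1.53 on the log2 scale (SE; adjusted p = 0.0126, edgeR). Selp, encoding P-selectin, had 113 and 5 counts in ECs against 0 and 4 in GFP-negative cells. In EC replicate 1, 79.6% of the Selp TPM was assigned to Selp-201, a 339-base transcript with a retained intron, so its 4.73 rescaled TPM there against 0.0409 in replicate 2 does not describe the coding mRNA. Madcam1, the ligand of the gut-homing integrin alpha4beta7, had 30 and 0 counts in ECs and 8 and 2 in GFP-negative cells, and 3 counts, the limit that the 0 in EC replicate 2 allows, would be a CPM (count scaled to depth) of 0.0642.

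Leukocyte markers in the EC libraries summed to 64.9 to 175.5 rescaled TPM, against 244.6 to 293 in GFP-negative cells. Erythrocyte markers summed to 16890 to 101500 in the EC libraries and 4895 to 42800 in GFP-negative cells. Pericyte markers summed to 795 to 906 against 1016 to 1458, and astrocyte markers to 187 to 1445 against 2567 to 4037, in the same order. Their part in these differences was not tested. In bulk RNA, fewer cells of a type and less RNA per cell cannot be told apart.

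The comparison of WT cultured with acutely isolated ECs asked how adhesion genes stood after 8 days away from the brain. Averaged over the 3 culture experiments, Vcam1, Icam1 and Icam2 lay higher in culture, but none of the 8 genes was called. Vcam1, Icam1, Icam2 and Alcam differed widely between cultures, and Sele, Selp and Madcam1 lay under the 5 TPM minimum. The count was 0 of 8 tested genes, where 13.5% of 13784 genes were called higher and 10.2% lower. No member reached an unadjusted p under 0.05, whereas 7385 genes did, and DESeq2 also called 0 members.

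Vcam1 measured 82.2 and 75.6 rescaled TPM in acute ECs and 1195, 1237, 389.7, 428, 88.7 and 101 in WT cultures 1 to 6. In rescaled TPM all cultures lay above the acute libraries, replicates 5 and 6 only just. In CPM replicates 5 and 6 stood at 115.7 and 147.7, against 197.5 and 145.6 in acute ECs. Replicate 5 was then below both acute libraries and replicate 6 between them, so their direction turned with the scale. The log2 fold change was 2.03 ± 1.02 (SE; adjusted p = 0.132, edgeR).

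Icam1 measured 59.6 and 53.5 rescaled TPM in acute ECs and 341, 344, 47.6, 44.7, 114 and 109.9 in the cultures. Method A cultures were the highest, replicates 3 and 4 lay below both acute libraries, and the groups overlapped. On deposited TPM replicates 3 and 4 lay 2.13-fold above the acute mean, and after rescaling they lay at 0.816 of it, so the direction in this experiment turned with the scale. The log2 fold change over all 6 cultures was 1.22 ± 0.83 (SE; adjusted p = 0.255, edgeR).

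Icam2 measured 201 and 143 in acute ECs and 464, 453, 362, 381, 116 and 128 in the cultures. Replicates 1 to 4 were above both acute libraries, and replicates 5 and 6 were below both. The log2 fold change was 1.07 ± 0.56 (SE; adjusted p = 0.147, edgeR).

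Among genes that act at the contacts, Cd99l2 was the steadiest of the abundant members. It measured 21.3 and 16 rescaled TPM in acute ECs and 31.5, 32.7, 24.9, 23.3, 28.6 and 28.8 in WT cultures. The ranges did not overlap, the cultures being higher, and the log2 fold change was 0.54 ± 0.24 (SE; adjusted p = 0.0990, edgeR). Alcam measured 8.32 and 20.4 in acute ECs and 32.3, 33.7, 1.83, 2.80, 17.4 and 16.9 in the cultures, so the cultures lay on both sides of the acute range. Its log2 fold change was 0.62 ± 0.84 (SE; adjusted p = 0.569).

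Sele, Selp and Madcam1 stayed scarce in culture. Sele measured 0.693 and 1.82 rescaled TPM in acute ECs and 3.57, 3.98, 0.742, 0.805, 1.62 and 1.26 in WT cultures, and the groups overlapped. Its log2 fold change was 0.10 ± 0.71 (SE; adjusted p = 0.919). Selp lay at 4.73 and 0.0409 rescaled TPM in acute ECs and at 0.711 to 2.01 in the cultures, inside the acute range. Its fit on counts gave 1.26 ± 0.90 as log2 fold change (SE; adjusted p = 0.275, edgeR), which was 4.41 (adjusted p = 0.00974) without acute EC replicate 1 and 0.33 (adjusted p = 0.690) without replicate 2, whereas the ratio of mean rescaled TPM was 0.496. Madcam1 stayed at or below 0.965 in all libraries, with -0.59 ± 1.51 (SE; adjusted p = 0.767).

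**Figure D2:**
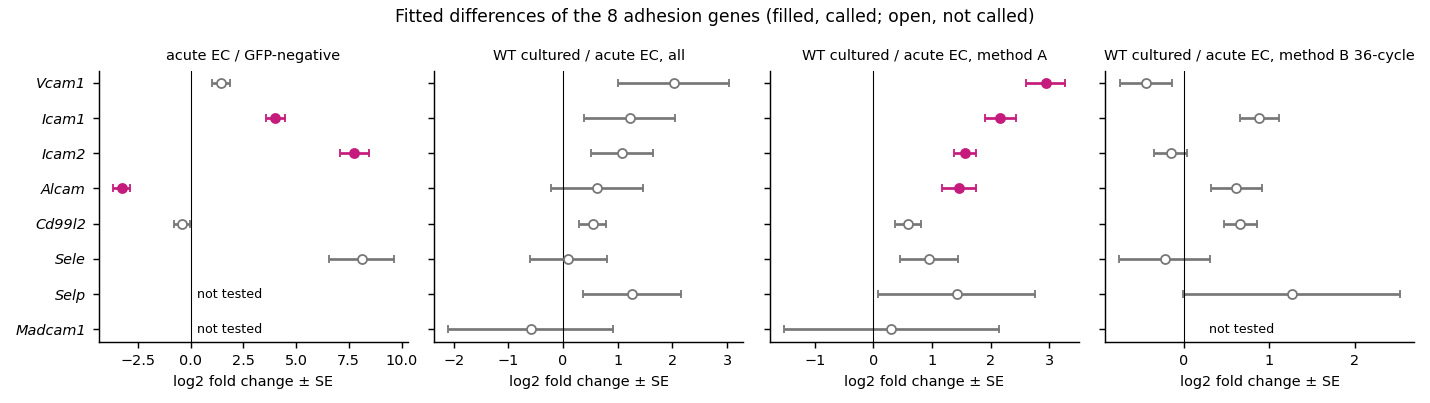
Log2 fold change with its standard error (edgeR) for each tested gene in 4 comparisons. These are acutely isolated ECs against GFP-negative cells, then WT cultures against acute ECs. The WT cultures entered all together, by method A only and by method B with the shorter reads only. The panel with all WT cultures shows the wide errors, such as 2.03 ± 1.02 for Vcam1. In the last panels Vcam1 lay above acute ECs by method A and at -0.44 by method B.

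When the WT cultures were restricted to method A, 4 of the 8 genes were called higher than in acute ECs, namely Vcam1 (log2 fold change 2.94, adjusted p = 0.00482), Icam1 (2.17, adjusted p = 0.00547), Icam2 (1.57, adjusted p = 0.00564) and Alcam (1.46, adjusted p = 0.0169, all by edgeR). In that fit 15.2% of 13401 genes were called higher and 13.2% lower. In rescaled TPM these cultures exceeded acute ECs by 15.4-fold for Vcam1, 6.05-fold for Icam1, 2.67-fold for Icam2 and 2.29-fold for Alcam. With the method B cultures of 36 cycles alone, none was called, where 16.1% of 13566 genes were called higher and 11.4% lower. In this fit on counts Vcam1 stood at -0.44 and Icam2 at -0.15 on the log2 scale. In rescaled TPM the same cultures stood at 1.20 times acute ECs for Vcam1 and at 0.709 for Icam2.

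The 3 WT culture experiments differed from each other. A test between them by edgeR sets their spread against that of 2 wells of 1 cell pool, so that 51.2% of 13050 genes were called different. Of 7 members tested, Vcam1, Icam1, Icam2 and Alcam were among them. The highest experiment exceeded the lowest 12.8-fold for Vcam1, 7.42-fold for Icam1, 3.76-fold for Icam2, 14.2-fold for Alcam and 1.33-fold for Cd99l2 in rescaled TPM.

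The order of the experiments was not shared by the genes. Vcam1 and Icam2 were highest in method A, intermediate in the 150-cycle and lowest in the 36-cycle method B cultures in rescaled TPM. On deposited TPM Icam2 was highest in the 150-cycle cultures, at 350.0 against 185 in method A. Icam1 and Alcam were also highest in method A but lowest in the 150-cycle cultures. Smooth muscle markers differed between the same experiments, at 1097 to 1588 rescaled TPM over 4 genes in method A, 2150 to 2311 in the 150-cycle and 7125 to 7599 in the 36-cycle method B cultures, against 529.5 and 723.5 in acute ECs. Of these markers Acta2, Tagln and Cnn1 were called higher in culture (3.11, 5.51 and 4.15, log2) and Myh11 lower (-4.40). Endothelial markers stood at 9148 to 9584, 2938 to 3040 and 4197 to 4205 rescaled TPM in the same order, against 7336 and 9381 in acute ECs. Cldn5, Tek, Kdr and Flt1 were called lower in culture (-1.97, -3.38, -3.50 and -4.54, log2) and Emcn higher (2.83). Pericyte markers summed to 25.9 rescaled TPM or less in every WT culture, against 795 to 906 in acute ECs, and microglial markers summed to 78.3 to 157 against 25.4 to 46.6. Leukocyte markers summed to 67.6 to 134 rescaled TPM in WT cultures, with 1 to 3 of 8 at 0 in an experiment, against 64.9 to 175 in acute ECs. The part of these markers in the differences between experiments was not tested.

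The comparison of beta-catenin stabilized with WT cultures asked whether these genes differed with stabilization. The paper reports very low levels of beta-catenin target genes in the stabilized cultures. It takes this to imply that the signaling was not activated, so the comparison is not one of an active Wnt signal with its absence. Over 4 stabilized against 6 WT cultures, 0 of 7 tested members were called, as were 0.00% of 12958 genes. By edgeR 1344 genes and 0 members had an unadjusted p under 0.05, and DESeq2 called 14 genes higher and 3 lower, with 0 members. The log2 fold change was 0.21 ± 0.74 for Vcam1 (SE; adjusted p = 0.929), -0.36 for Icam1 (adjusted p = 0.825), -0.36 for Icam2 (adjusted p = 0.741) and 0.23 for Cd99l2 (adjusted p = 0.566).

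Vcam1 in stabilized cultures 1 to 4 measured 1241, 1093, 230.1 and 265 rescaled TPM. The first pair, by method A, lay beside the 1195 and 1237 of the matching WT cultures, and the other pair lay above the 88.7 and 101 of the 36-cycle method B cultures. Within method A the log2 fold change was -0.05 ± 0.09 (SE; adjusted p = 0.625), and within method B it was 1.4 ± 0.13 (SE; adjusted p = 0.00134, edgeR), called higher where 1.08% of 12835 genes were and 0.280% were called lower.

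Icam1 differed within method A instead. It measured 154 and 154 by method A against 341 and 344 in WT, and 106 and 97.6 by method B against 114 and 109.9. The method A stabilized cultures were the lower ones, with log2 -1.20 ± 0.08 (SE; adjusted p = 0.000455, edgeR), called lower where 0.918% of 12848 genes were and 5.39% were called higher. Within method B it was -0.15 (adjusted p = 0.100).

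Icam2 moved in opposite directions by method. It measured 349.9 and 315 by method A against 464 and 453 in WT, and 175 and 189 by method B against 116 and 128. The log2 fold change was -0.64 within method A (adjusted p = 0.00152) and 0.60 within method B (adjusted p = 0.00449, edgeR), neither of them over 2-fold. Sele followed the same pattern at its low level, with 0.890 and 0.763 rescaled TPM by method A against 3.57 and 3.98 in WT, and 1.91 and 1.81 by method B against 1.62 and 1.26.

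The difference between the methods was tested directly as an interaction over the 36-cycle cultures. A call here needed an adjusted p under 0.05 and over a 2-fold difference, with no TPM minimum, so that Sele could be called at its low level. It was called for 4 of the 8 genes, where 15.3% of 13356 genes were called. The effect of stabilization by method A minus that by method B was -1.47 ± 0.17 for Vcam1 (SE; adjusted p = 0.000322), -1.07 ± 0.10 for Icam1 (0.000150), -1.26 ± 0.14 for Icam2 (0.000266) and -2.74 ± 0.25 for Sele (0.000138, edgeR) on the log2 scale. Each group here, and in the comparisons within a method, is 2 wells of 1 culture experiment, so the p-values measure the spread between wells only, while the WT experiments alone differed 12.8-fold for Vcam1. In method A the stabilized and WT mice also differed in strain background, which cannot be told apart from the stabilization. Deposited TPM shifted the median of all genes by 0.69 (log2) between stabilized and WT cultures in method A and by -0.13 in method B, while rescaled TPM shifted it by 0.08 and 0.00. On deposited TPM the method A stabilized cultures lay above WT for Vcam1 (1.45-fold) and Icam2 (1.10-fold), and below it for Icam1 (0.683).

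**Figure D3:**
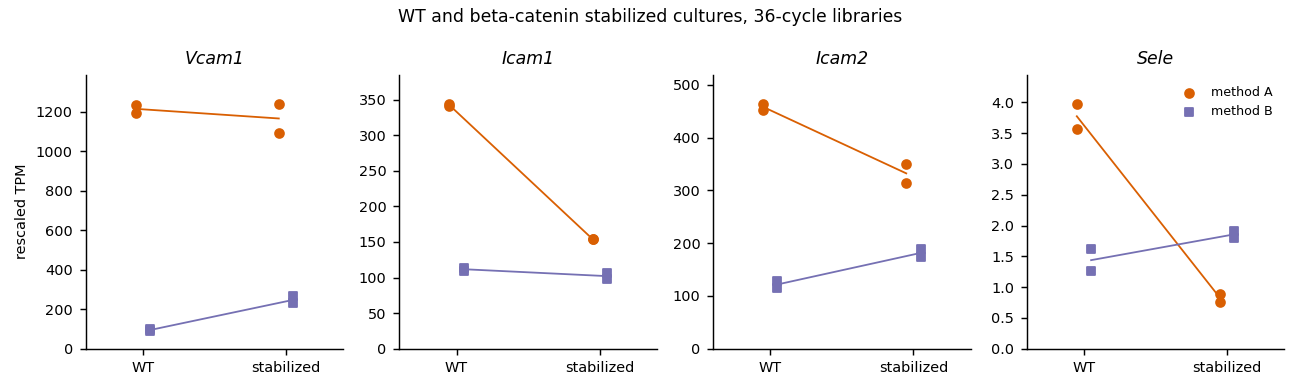
Rescaled TPM of Vcam1, Icam1, Icam2 and Sele in WT and stabilized 36-cycle cultures, split by isolation method, 1 point per well. Stabilized wells were at 0.450 of WT for Icam1 by method A and at 2.61 times WT for Vcam1 by method B, whereas Vcam1 by method A was at 0.960.

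Several members were assigned to different transcripts in cultured and acutely isolated ECs. Salmon's shares of TPM are model estimates, and the read formats differed between these groups. The exons that set the transcripts apart are shown in part, in lower case throughout. The coding part of the last exon of Vcam1-203 (107 bases, absent from Vcam1-201) and the exon of Cd99l2-201 that Cd99l2-202 lacks (69 bases) lie on the minus strand of GRCm38 and read as follows.
Vcam1-203, chr3:116123687-116123793, minus strand: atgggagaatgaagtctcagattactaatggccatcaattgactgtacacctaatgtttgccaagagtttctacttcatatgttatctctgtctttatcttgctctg
Cd99l2-201, chrX:71449939-71450007, minus strand: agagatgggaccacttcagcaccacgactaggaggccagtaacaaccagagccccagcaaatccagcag

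Vcam1-203 has 5 exons and 345 codons against 9 exons and 739 codons in Vcam1-201. It held 14 and 34.9% of Vcam1 TPM in acute ECs, 3.62 and 0.278% in GFP-negative cells and 66.5, 58.8, 53.6, 54.8, 40.7 and 50.4% in WT cultures. Every culture was above both acute libraries. In stabilized cultures its share was 47.3, 48.6, 41.5 and 38.6%, which overlapped the WT cultures. By estimated counts the mean share was 12.7% in acute ECs, 48.0% in WT cultures and 36.5% in stabilized cultures.

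Cd99l2-201, with 237 codons, held 0 and 6.20% of Cd99l2 TPM in acute ECs and 64.0, 74.0, 84.1, 81.6, 79.2 and 72.4% in WT cultures. Cd99l2-202, with 214 codons, held 45.1 and 85.6% in acute ECs and 15.1 to 32.3% in WT cultures. The shares of these transcripts thus did not overlap between acute and cultured ECs while the gene's total changed by less than 2-fold in rescaled TPM. Icam2-201 held 29.2 and 73.9% of Icam2 TPM in acute ECs and 87.8 to 96.8% in WT cultures.

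**Figure D4:**
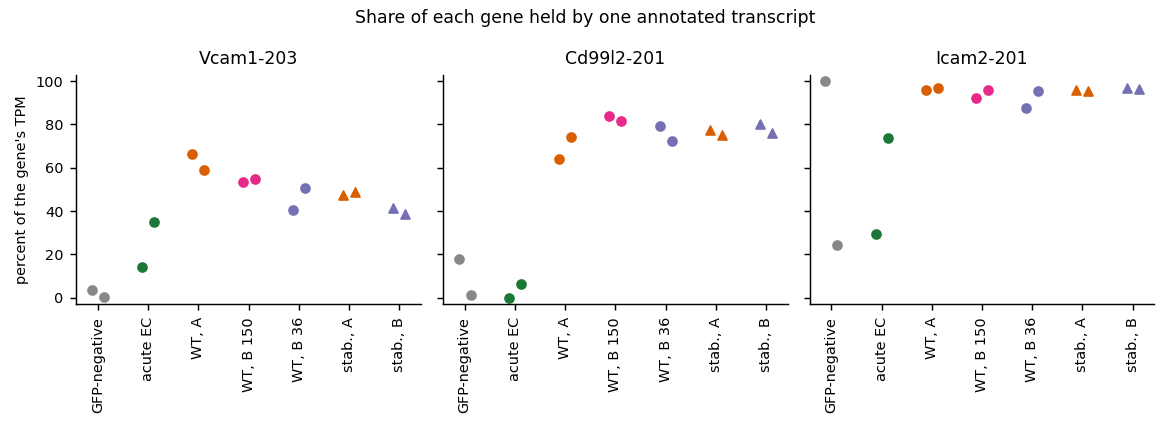
Share of each gene's deposited TPM, in percent, assigned to Vcam1-203, Cd99l2-201 and Icam2-201, 1 point per library. Cd99l2-201 held at most 6.20% in acute ECs and at least 64.0% in WT cultures, with GFP-negative cells at 1.23 and 17.8%.

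Accessible chromatin was read as peaks called in each ATAC-seq library, kept when the fold enrichment was over 2 and the -log10 q-value over 2. The 2 acute libraries held 37384 and 31779 peaks, the 6 WT cultures 33122 to 98732 and the 2 stabilized cultures 80034 and 79116. Promoter peaks, within 1000 bases of a start, divided the 8 genes into 3 groups. Icam2, Alcam and Cd99l2 had one in all 10 libraries, with fold enrichments of 6.52 to 11.4, 14.3 to 20.3 and 7.82 to 18.4. That was 3 of 8 genes, where 50.2% of 21738 genes had such a peak in all libraries and 31.9% had none in any library.

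Vcam1 and Icam1 had weaker and less regular promoter peaks. Vcam1 had none in the acute libraries, and in WT cultures 1 to 6 its fold enrichment was 3.45, none, 7.0, 6.16, 4.27 and 3.89. Stabilized cultures had 3.93 and 5.34. Icam1 had 3.32 and 4.07 in the acute libraries, peaks in WT cultures 3, 4 and 6 at 3.47, 3.19 and 2.78, none in the other WT cultures and 1 peak, at 2.65, in the stabilized cultures. The Icam1 peak did not follow the transcript, which was highest in method A cultures without a promoter peak.

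Sele, Selp and Madcam1 had no promoter peak in acute ECs or in either method A culture. Sele had one in WT cultures 3 to 6, at 7.55, 7.13, 11.1 and 11.2, and in both stabilized cultures, at 8.96 and 9.02. Madcam1 had one in the same libraries, at 3.86 to 4.79 in WT and 3.44 and 3.65 in stabilized cultures, and Selp in WT cultures 3, 4 and 6 at 2.69 to 3.86. Of these Sele peaks, only that of WT culture 4, at 7.13, covers the Sele window printed above. The others have summits 392 to 403 bases past the start, beyond the window. The window lies in a separate, weaker region (chr1:164047960-164048362), with a mean fold enrichment of 6.08 in WT and 4.84 in stabilized cultures. The Madcam1 peaks given here lie in chr10:79664052-79664372, so all end before the NF-kB matches of its printed window. That of stabilized culture 1 ends before the window itself. Sele remained under 4 rescaled TPM in every RNA library. The method A cultures had 50395 and 33122 peaks and the method B cultures 84523 or more, and the part of this difference was not tested. The method A and B ATAC libraries also differed in genotype, as in RNA. None of the 8 genes had a promoter peak in all 6 WT cultures and no acute library, where 1.72% of genes did, and none had it in both acute libraries and no WT culture, where 0.262% did.

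**Figure D5:**
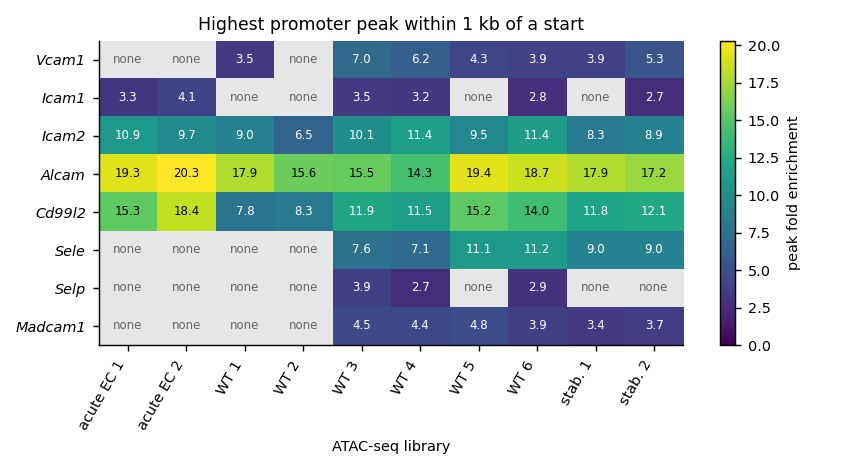
Heat map of the fold enrichment of the strongest promoter peak of each gene in each ATAC-seq library, with blank cells where no peak was kept. Icam2, Alcam and Cd99l2 have a peak in all 10 libraries, and Sele and Madcam1 only in method B cultures, WT and stabilized.

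Around the promoters, 64 merged peak regions lay within the 8 genes or 10000 bases of them. Of these, 6 had a peak in all 6 WT cultures and in no acute library, or 9.38% against 8.11% of 125880 regions in the genome. They comprised 3 in introns of Alcam, 2 in introns of Selp and 1 over an exon of Vcam1. A further 3 had a peak in both acute libraries and no WT culture, 1 each at Icam1 (chr9:21014591-21014891), Sele (chr1:164041190-164041546) and Selp (chr1:164121913-164122192), where 2.92% of regions did. Another 8 were shared by both acute and all WT libraries, or 12.5% against 13.4% of regions in the genome.

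Of these 6 regions with a peak in every WT culture and in no acute library, 3 are shown as 201 bases around the peak summit: that at Vcam1 and both that held an AP-1 match, chosen after their letters were searched. They are given on the plus strand of GRCm38.p6, with AP-1, TEAD (CATTCC) and ETS matches on either strand in capitals.
Vcam1, end of a coding exon and the adjoining intron, chr3:116114607-116114807: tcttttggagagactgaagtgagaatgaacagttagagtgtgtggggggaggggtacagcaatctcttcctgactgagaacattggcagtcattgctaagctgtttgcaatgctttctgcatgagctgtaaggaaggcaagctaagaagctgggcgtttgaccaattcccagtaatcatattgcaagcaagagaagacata
Alcam, intron, chr16:52418589-52418789: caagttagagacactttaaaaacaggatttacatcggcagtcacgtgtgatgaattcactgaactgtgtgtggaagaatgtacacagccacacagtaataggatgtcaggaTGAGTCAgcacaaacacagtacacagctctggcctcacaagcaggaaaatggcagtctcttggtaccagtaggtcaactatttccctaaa
Alcam, intron, chr16:52438297-52438497: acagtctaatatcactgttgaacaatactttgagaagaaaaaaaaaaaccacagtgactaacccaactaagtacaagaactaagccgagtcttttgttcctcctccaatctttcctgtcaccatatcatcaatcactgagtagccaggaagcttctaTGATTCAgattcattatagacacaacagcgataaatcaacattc

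An AP-1 match was held by 2 of the 6 sequences, both printed and both at Alcam, 11 and 57 bases from the summit. The third Alcam region held a TEAD match, both Selp regions held an ETS match, and the Vcam1 sequence held none of the motifs in capitals. Of all regions of this class in the genome, 49.4% held an AP-1 match in the same window, against 11.4% of regions shared by acute and cultured ECs. For TEAD the shares were 23.0 and 10.5%. The region at the Vcam1 exon (chr3:116113802-116114946) had a mean fold enrichment of 12.1 in WT cultures. A region downstream of Vcam1 (chr3:116104788-116105468) had a mean of 5.29 in acute ECs and 18.3 in WT cultures. Alcam held 16 regions, of which 12 had peaks in 2 or more WT cultures and in no acute library, although its transcript lay on both sides of the acute level.

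The other genes of leukocyte traffic were taken as 8 lists with 92 genes, and each list is described by its counts beside all genes. In WT cultures against acute ECs all genes had a median of 0.10 (log2 fold change). Of all genes 13.5% were called higher and 10.2% lower in this comparison. Cytokine receptors and NF-kB components had 9 of 18 genes called higher and 3 lower, with a median of 1.24. Tlr4, the receptor for bacterial lipopolysaccharide, was higher by 4.15 on the log2 scale, Ifngr2, a chain of the interferon-gamma receptor, by 2.85, Il1rap, the co-receptor for interleukin-1, by 2.19, and Relb, an NF-kB subunit, by 1.98. Ikbkb, the kinase that releases NF-kB, stood at -1.78, Il1r1, the interleukin-1 receptor, at -1.71 and Irf1, an interferon-induced factor, at -1.72, all called lower by edgeR. With a transcript length offset these counts were 7 higher and 1 lower and the median was 0.39, where 12.9% of all genes were called higher and 13.2% lower and their median was 0.03.

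NF-kB feedback genes and targets had 3 of 12 called higher and 0 lower, with a median of 0.56. Tnfaip2, a cytokine-induced gene, was higher by 5.42 and Csf1, a macrophage growth factor, by 1.79. Ccl2, the monocyte chemokine, was listed at 0 in both acute libraries and at 53.6 to 770 TPM in the WT cultures. Nfkbia, the inhibitor that NF-kB induces, had a log2 fold change of 0.06 (adjusted p = 0.889, edgeR) and Sod2, a mitochondrial antioxidant enzyme, had 0.05 (adjusted p = 0.875).

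Genes of the contacts and of the cell surface moved both ways. Of 11 junctional genes 2 were higher and 2 lower (median 0.27), with Nectin2 at 3.14 and Pvr, both nectin-family proteins, at 2.18, and Jam2, a junctional adhesion molecule, at -4.31 and Cd47 at -1.71. Pecam1 and Esam, adhesion proteins of endothelial contacts, had 0.27 (adjusted p = 0.751) and 0.53 (adjusted p = 0.275, edgeR). Of 6 tested relatives of the 8 genes (other surface adhesion proteins and sialomucins) 2 were higher and 1 lower, with a median of -0.38. Mcam, an immunoglobulin-superfamily adhesion protein, stood at 2.68, and the sialomucins Emcn and Podxl at 2.83 and -3.72.

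Genes for the docking structure beneath ICAM1 and VCAM1 had 1 of 13 higher (Flna, filamin A, 3.12) and 1 lower (Rdx, radixin, -1.40), with a median of 0.59. Weibel-Palade body genes, for the granule that stores P-selectin, had 2 of 10 higher (Angpt2, 5.28, and Cd63, 3.94), with a median of 0.62, and Vwf, the granule's main cargo, had 0.10 (adjusted p = 0.912). Sheddases had 1 of 7 higher (Adam9, 2.69) and 2 lower (Adam10, -2.33, and Adam17, -1.71, proteases that release adhesion molecules from the surface), with a median of 0.87. Leukocyte counter-receptors had 2 of 7 higher, Cd44 at 5.78 and Itgb1 at 1.53, both also made by ECs.

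In acutely isolated ECs against GFP-negative cells, 30 of the 92 listed genes were called, and not all of the 92 were tested. Of all 15102 genes tested 15.9% were called, 8.30% higher and 7.56% lower, and their median was -0.06. Junctional genes had 6 of 11 higher and 1 lower, with a median of 3.34, among them Cdh5 at 7.17, Pecam1 at 6.78, Esam at 4.20 and F11r at 3.64, with Jam3 at -2.82. The surface relatives had 3 of 7 higher and 1 lower, with Podxl at 8.24, Cd34 at 7.0 and Emcn at 5.94 against Mcam at -2.59. Counter-receptors, which leukocytes carry, had a median of -4.39 and 1 gene called, Selplg, the P-selectin ligand, which lay at 14 and 55.2 TPM in GFP-negative cells and at 0 and 0.0636 TPM in ECs. Between stabilized and WT cultures 0 genes of the 8 lists were called by edgeR and 1 by DESeq2.

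Genes whose levels ran most like those of a member were found by Pearson's r of log2(deposited TPM + 1) over the 14 libraries, among 11601 genes. The 14 points share groups, experiments and composition, so r is a description. For Vcam1 they were Sult1a1 (r = 0.986), Nrarp (0.979) and Hrct1 (0.978), for Icam1 Gm49391 (0.984), Serpinb6a (0.979) and Smad6 (0.975), and for Icam2 AU021092 (0.993), Prkch (0.988) and Acvrl1 (0.987). For Cd99l2 they were Mccc2 (0.971), Gramd4 (0.969) and Supt7l (0.965), and Alcam had lower values, with Rgs2 (0.930) first. Between members r was 0.913 for Icam1 and Icam2, 0.835 for Vcam1 and Icam1 and -0.592 for Alcam and Icam2.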

How the data were processed

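RNA-seq values were deposited by the authors as Salmon 0.14.0 estimated counts and TPM for 140198 GENCODE M21 (GRCm38) transcripts per library. They were summed here per gene symbol, and estimated counts were rounded. The authors called ATAC-seq peaks per library with MACS2 2.1.2 after HISAT2 2.1.0 alignment, and the deposited peak files give a score, a fold enrichment (ratio) over background, and -log10 p-values and q-values, of which the fold and the q-value were used.

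Genes were tested with edgeR 4.0.16 (R 4.3.3, quasi-likelihood, TMM scaling, low-count filter), fitted on all protein-coding genes and only the libraries of each comparison. Adjustment was by Benjamini-Hochberg over all genes tested. The study's own test was another tool, and its 2-fold, 0.05 and 5 TPM thresholds were kept. The code was tested on simulated data. For culture 14% of genes changed 2-fold and 94% changed 4-fold were recovered among 13661 genes. For stabilization these shares were 48% and 100% among 13022 genes and for EC enrichment 10% and 76% among 15331 genes. The simulated libraries were independent, with the same dispersion for every gene and no experiments or methods. These shares therefore do not tell how often such changes would be found in the real cultures, whose experiments differed widely.

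The 8 genes, the gene lists and the tests were chosen with earlier results of these data known. From each gene list, the called genes with the largest changes and the uncalled genes with the highest TPM were named, and the genes called lower in the receptor list and Jam3 were named after their values were seen. TPM was rescaled so that nuclear protein-coding genes, mitochondrial-genome genes left out, had the same total in each library. Alternatives were DESeq2 1.42.0, library-size scaling, a transcript length offset, no low-count filter, no TPM minimum, a joint fit, summed wells, subsets of cultures and each library left out. Labels gave replicate numbers shared across groups, which were not used to pair the samples in the main fits. The separate libraries labelled as cerebrum were not analysed here, although the paper's adult brain ECs include cerebrum data. A result for 1 gene of the lists is not reported here.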

Additional observations from a re-analysis of the deposited data

Results flagged for a closer look

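The effect of beta-catenin stabilization on 4 genes differed between isolation methods, by the interaction over the 36-cycle cultures. Method A minus method B was -1.47 for Vcam1, -1.07 for Icam1, -1.26 for Icam2 and -2.74 for Sele on the log2 scale, with the lower stabilization effect in method A for each. Selp in stabilized replicate 2, at 0.972 TPM, stood apart as the highest of its 4 libraries. It was the only such sample in 28 groups of genes and conditions checked, where chance sets about 1 in 20 apart.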

How the results depend on the processing

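Replicate numbers were not used to pair the samples in the main fits. For stabilization, deviations of same-numbered libraries correlated at 0.57, 0.60, 0.09 and 0.18. Stabilized replicate 1 with WT replicate 2 gave 0.64, and stabilized replicate 2 with WT replicate 1 gave 0.48. Same-numbered libraries gave 0.09 for EC enrichment and -0.05 and 0.03 for culture. With 2 libraries per sorted group the deviations are equal and opposite, so this check cannot decide whether the sorted libraries were paired. With a replicate block, 4 adhesion genes were called in culture (the fit then rests on the method A cultures), 3 in EC enrichment and 0 under stabilization, and Vcam1 stood at -0.52 and Icam1 at 0.072 under stabilization and Madcam1 at 1.01 in culture. The culture count was 1 with 36-cycle cultures only (Icam1, where 1927 of 13726 genes were called higher) and 4 with method A cultures only, against 0 in the full comparison. The stabilization count was 1 with method A only (Icam1) and 1 with method B 36-cycle cultures only (Vcam1). DESeq2 called 1 gene of the 8 lists under stabilization. Leaving out each library in turn gave 0 to 0 adhesion genes in culture and under stabilization, 3 to 4 in EC enrichment, 3 to 5 in the interaction and 4 to 5 between experiments; the interaction of Icam1 was -0.98, under 2-fold, without stabilized replicate 3, and Cd99l2 was called between experiments without WT replicate 2 (adjusted p = 0.0465, edgeR).

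Directions turned for small or scarce values. In culture, with method B 36-cycle cultures only, Vcam1 was -0.44, Icam2 -0.15 and Sele -0.22. Sele ranged from -0.34 to 0.67 with each library left out. Selp was -1.16 with the transcript length offset. Madcam1 was 0.31 with method A only and ranged from -1.58 to 5.63 with each library left out. Under stabilization Vcam1 was -0.052 with method A only and ranged from -0.17 to 0.46 with each library left out, being below 0 without stabilized replicate 1 or 2 or WT replicate 5 or 6. Icam2 was 0.60 and Sele 0.35 with method B 36-cycle cultures only, Selp -0.42 and Alcam -0.14 with method A only, Alcam -0.091 with 36-cycle cultures only, and Selp ranged from -0.078 to 0.27 with each library left out. The interaction of Selp ranged from -1.33 to 0.099 with each library left out. The causes were not tested, beyond that subsets hold fewer samples.

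The 5 genes that reached 5 TPM stayed 5 with each library left out, but 29 gene and group means moved by over 1 SD when TPM was rescaled. Values of Sele, Selp and Madcam1 rest on few reads, and 2 libraries per sorted group limit any adjusted p there.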
